A study of Vicia sativa with 8 samples.

Results

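The sepals of common vetch (Vicia sativa, cultivar Lanjian 3) were compared with the carpels of the same flowers, so that the outermost and the innermost whorl stood against each other. Both libraries carried the label of their organ and came from floral stage 12 of plants about 45 days old, grown in a greenhouse at 22 °C with 16 h of light and 8 h of dark; the flowers of many plants were pooled. The series held 8 organs with 1 library each (sepals, carpels, stamens, 3 kinds of petal, leaves and roots), sequenced on an Illumina HiSeq 2000 as poly(A) RNA and counted on one set of 71553 assembled unigenes. The leaves and roots came from 2-week-old seedlings, so organ and plant age cannot be told apart where they are set beside floral organs. Of these, 67262 had a read in sepals or carpels, 57113 in both, 7436 in sepals with none in carpels, and 2713 in carpels with none in sepals.

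A flower is built from concentric whorls, and which organ a whorl becomes is set by combinations of floral homeotic genes, most of them MADS-box transcription factors. In Arabidopsis, APETALA1 (AP1) acts in the outer whorls and AGAMOUS (AG) in the inner ones, APETALA3 (AP3) and PISTILLATA (PI) specify petals and stamens, and the SEPALLATA (SEP) factors act in every whorl. Sepals are green, leaf-like organs that enclose the bud. The carpel of a legume encloses the ovules and becomes the pod.

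Reads were given as deposited, and levels as RPKM, the reads scaled to the length of the unigene and the total of the library. The ratio of sepals over carpels was taken between RPKM values for the 40743 unigenes with at least 30 reads summed over both libraries; the other 26519 unigenes with a read were too shallow to be compared. A unigene was counted as higher or lower in sepals past a 4-fold ratio, and 0 reads were set to 3, so that such a ratio is a bound. With 1 library per organ there was no replicate and no test. Ranges in brackets behind a ratio are exact 95% binomial intervals of the reads and cover counting error only, not the spread between plants or library preparations. A unigene is an assembled fragment, several can belong to 1 gene, and its name is that of its matches in the nr protein database, which often comes from a distant species.

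By this count 8021 unigenes were higher in sepals, which was 19.7% of those compared, and 3713 were lower, which was 9.11%. Past 8-fold, 8.69% were higher and 4.72% lower. The median log2 ratio over all compared unigenes was 0.60, with quartiles at -0.60 and 1.69, so the typical unigene had the higher RPKM in sepals. Scaling by trimmed mean of M values (TMM) moved all ratios by -0.55 and gave 5087 higher (12.5%) and 5550 lower (13.6%). Centring on the median gave 4852 higher (11.9%) and 5775 lower (14.2%). The share of calls that were higher in sepals was therefore 68.4% as deposited, 47.8% with TMM and 45.7% when centred. The counts and medians of the groups below are as deposited unless called centred, and are to be read beside 19.7%, 9.11% and the median of 0.60. Centred counts are to be read beside 11.9% higher and 14.2% lower. The carpel library was the more concentrated: the 100 most abundant unigenes of each library took 3.57% of reads in sepals and 7.33% in carpels. Totals were 6.28 M reads on 64549 unigenes in sepals and 5.44 M reads on 59826 unigenes in carpels, and the median unigene was covered over 86.8% of its length in sepals and 78.9% in carpels. Unigene length moved with the ratio: the median log2 ratio was 0.51 over 5292 unigenes of 150 to 199 bp and 1.13 over 1107 unigenes of 2000 bp or more, and in these long unigenes median coverage was 95.5% in sepals and 82.4% in carpels. The part of length and coverage in the results was not tested.

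**Figure D1:**
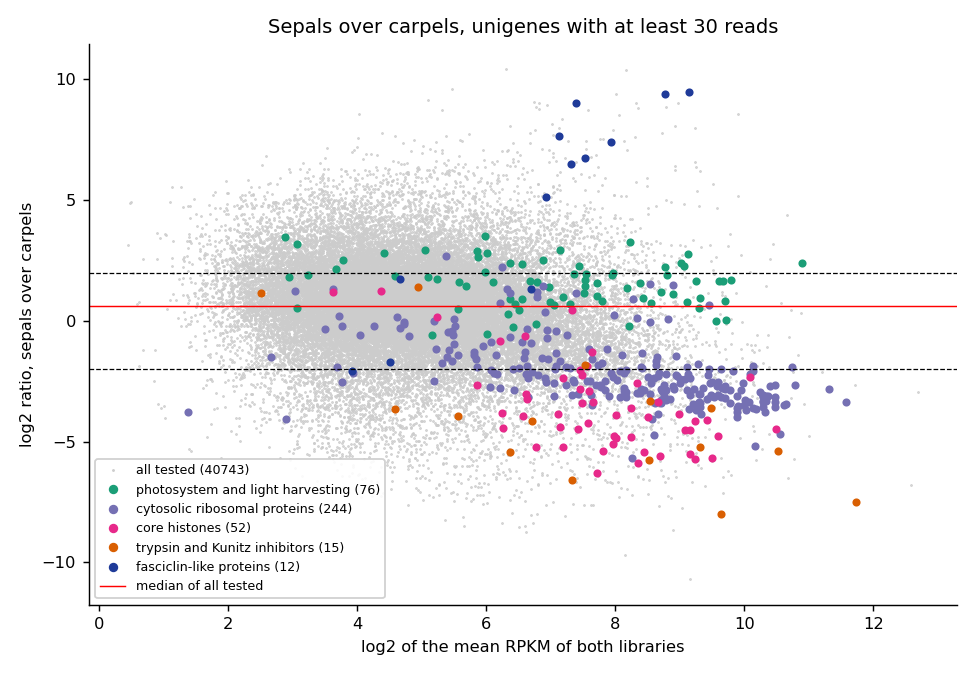
Log2 ratio of sepals over carpels (y axis) against the log2 of the mean RPKM of both libraries (x axis) for 40743 unigenes, grey, with 5 groups coloured. Dashed lines mark 4-fold and the red line the median of all unigenes at 0.60; core histones, ribosomal proteins and trypsin inhibitors sit mostly below the lower dashed line, and 8 of 12 fasciclin-like unigenes above the upper one.

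The floral homeotic unigenes separated the organs as their labels say. The homologs were paired with unigenes by the study on these libraries, so this checks the labels and is no independent result. The AP1 homolog Unigene61668 had 1856 reads (575 RPKM) in sepals and 12 reads (4.29 RPKM) in carpels, a ratio of 134 (76.5 to 260). Unigene57258 had 987 reads (380 RPKM) in sepals and 2 reads (0.888 RPKM) in carpels, and Unigene21418 had 431 reads (432 RPKM) in sepals and 2 reads (2.31 RPKM) in carpels. Unigene13061 had 470 reads (84.4 RPKM) in sepals and 4 reads (0.829 RPKM) in carpels. All 4 AP1 homologs were thus at least 84.4 RPKM in sepals and at most 4.29 RPKM in carpels. In a bulk library, fewer cells that express a gene and less RNA per cell cannot be told apart.

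The 5 homologs of AG or AGL5 described here had the opposite order. Unigene53994, an AGAMOUS match, had 19 reads (8.40 RPKM) in sepals and 334 reads (171 RPKM) in carpels, so it was 20.3-fold lower in sepals (12.8 to 34.1), and Unigene61452 had 4.71 RPKM in sepals and 77.6 RPKM in carpels. The SHATTERPROOF-like Unigene48885 had 3 reads in sepals and 72 in carpels, Unigene26271 had 2 reads in sepals and 44 in carpels, and Unigene35134 had 0 reads in sepals and 67 in carpels, at least 25.8-fold lower. CRABS CLAW, a YABBY factor that in Arabidopsis is needed for carpel growth and nectary formation, matched Unigene7160, named here after its values were seen: it had 0 reads in sepals and 78 reads (31.6 RPKM) in carpels, at least 30.02-fold lower in sepals.

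Markers of the organs in between were low in both libraries. The 4 AP3 and PI homologs lay between 5.07 and 7.77 RPKM in sepals and between 2.21 and 7.74 RPKM in carpels, while the same unigenes lay between 89.8 and 506 RPKM in stamens. The 3 SEP homologs were expressed in both whorls: Unigene56502 had 205 RPKM in sepals and 379 RPKM in carpels, Unigene32641 158 and 201 RPKM, and Unigene66892 39.6 and 28.1 RPKM, in the same order. None of the 3 passed a 4-fold ratio. The word search for pollen and anther proteins gave 66 compared unigenes, of which 12 were higher and 19 lower in sepals, with a summed level of 2280 RPKM in sepals, 6251 RPKM in carpels and 3936 RPKM in stamens, so these names do not mark stamens here. Its largest entry shows this: Unigene6099, named after the anther-specific proline-rich protein APG, had 26.0 RPKM in sepals, 896 RPKM in carpels and 3.58 RPKM in stamens.

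**Figure D2:**
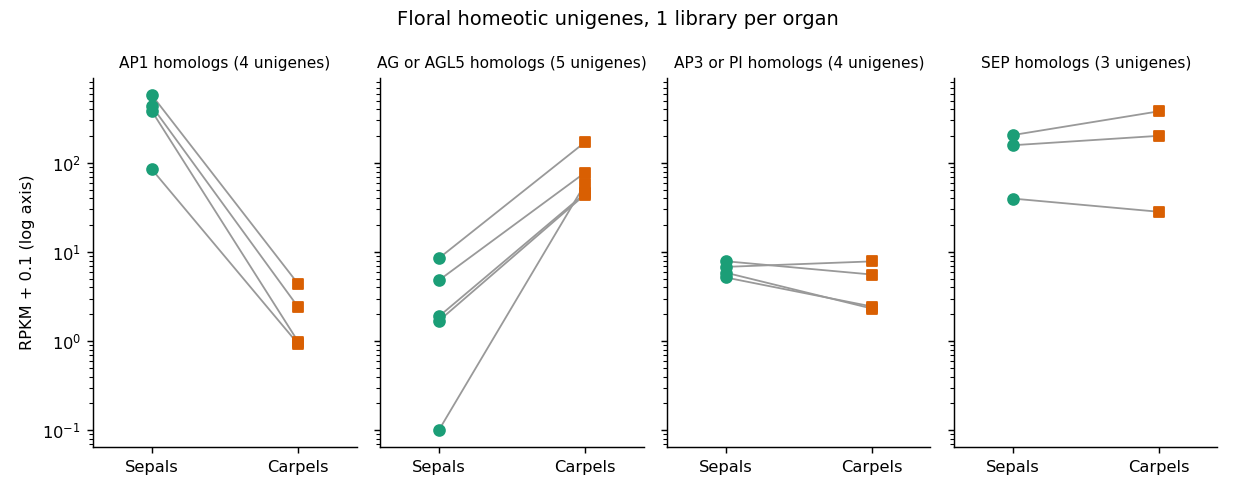
RPKM + 0.1 on a log axis in sepals (circles) and carpels (squares) for the homologs of AP1, AG or AGL5, AP3 or PI, and SEP; each line joins 1 unigene. The 4 AP1 lines fall and the 5 AG or AGL5 lines climb from left to right, the AP3 and PI unigenes stay under 8 RPKM in both organs, and the SEP unigenes are high in both.

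Photosynthesis unigenes were more abundant in sepals than in carpels. Light-harvesting proteins bind the chlorophyll that feeds the photosystems, and of 76 compared unigenes of photosystems and light harvesting 22 were higher in sepals and 0 lower, a share of 28.9% against 19.7% of all unigenes. Their median log2 ratio was 1.63, which was 1.03 above that of all unigenes, and they summed to 28223 RPKM in sepals, 11018 RPKM in carpels and 66590 RPKM in leaves. The leaf sum rests on the most abundant members, since the median unigene of the list had 195 RPKM in sepals, 77.2 RPKM in carpels and 200.4 RPKM in leaves. Unigene29229, a light-harvesting chlorophyll a/b binding protein, had 3220 RPKM in sepals and 608 RPKM in carpels (5.30-fold, 4.87 to 5.78). Lhcb2 (Unigene6993) had 891 RPKM in sepals and 183 RPKM in carpels. With the ratios centred, 11 of the 76 were higher past 4-fold and 0 lower, beside 11.9% higher and 14.2% lower over all unigenes. The centred share higher was thus near that of all unigenes.

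Enzymes that fix carbon lay on the same side, with exceptions. Of 37 Rubisco and Calvin cycle unigenes 21 were higher in sepals and 2 lower, with a median log2 ratio of 2.02; 10 and 2 were past 4-fold when centred. Phosphoribulokinase, which regenerates the CO2 acceptor, had 1272 RPKM in sepals and 144 RPKM in carpels (Unigene20737, 8.85-fold, 7.34 to 10.7). Rubisco activase, which keeps the carboxylating enzyme open, had 836 RPKM in sepals in both of 2 unigenes, against 153 RPKM (Unigene59870) and 94.9 RPKM (Unigene46474) in carpels. The 2 lower unigenes were small subunits of Rubisco: Unigene22537 had 1 read in sepals and 100 reads in carpels, and Unigene21340 had 7 and 142 reads in the same order. In the same order of unigenes they had 3.44 and 0 RPKM in leaves and 822 and 810 RPKM in roots.

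Photorespiration recycles the product that Rubisco makes when it uses oxygen, and a list of its enzymes was put together after 2 of them had come out among the most abundant sepal unigenes past 8-fold. Serine hydroxymethyltransferase, the mitochondrial step, had 1865 RPKM in sepals and 52.2 RPKM in carpels in Unigene20456 (35.7-fold, 26.5 to 49.4), and 1474 RPKM in sepals and 58.2 RPKM in carpels in Unigene46511. Its partner, the P subunit of glycine decarboxylase, had 612 RPKM in sepals and 66.9 RPKM in carpels (Unigene66982), and glycolate oxidase, the peroxisomal step, 392 RPKM in sepals and 31.5 RPKM in carpels (Unigene2823). Of 36 compared members 19 were higher and 1 lower. Enzymes that take up ammonia, as is set free by this cycle, went both ways. Plastid glutamine synthetase 2 had 652 RPKM in sepals and 69.9 RPKM in carpels (Unigene5489), and 2 glutamate synthase unigenes had 483 and 194 RPKM in sepals, against 25.3 and 9.17 RPKM in carpels (Unigene58049 and Unigene71139). Another glutamine synthetase match, Unigene365, had 2.49 RPKM in sepals and 147 RPKM in carpels, and a nodulin/glutamate-ammonia ligase-like match, Unigene62084, had 2.43 RPKM in sepals and 251 RPKM in carpels.

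Pigment and sugar metabolism lay on the same side. Among 73 unigenes for chlorophyll and carotenoids 36 were higher in sepals and 4 lower, with a median log2 ratio of 1.81, and 22 and 5 were past 4-fold when centred. Zeaxanthin epoxidase, of the xanthophyll cycle, had 224 RPKM in sepals and 15.2 RPKM in carpels (Unigene71896, 14.7-fold, 12.8 to 17.1), and a magnesium chelatase unigene, at the entry to chlorophyll synthesis, had 445 RPKM in sepals and 49.1 RPKM in carpels (Unigene50943). Exceptions were 2 chlorophyllase unigenes, Unigene43647 with 11.6 RPKM in sepals and 70.0 RPKM in carpels, and Unigene49455 with 11.4 RPKM in sepals and 62.3 RPKM in carpels. Of 196 unigenes for sucrose, hexose and starch 71 were higher and 12 lower, with a median log2 ratio of 1.39: sucrose phosphate synthase had 281 RPKM in sepals and 23.6 RPKM in carpels (Unigene68993), and a sucrose transporter, which loads the phloem in leaves, 347 RPKM in sepals and 16.5 RPKM in carpels (Unigene61616, 21.0-fold, 15.6 to 28.8). An invertase inhibitor, Unigene40324, went the other way with 0 reads in sepals and 516 reads (394 RPKM) in carpels, at least 199-fold lower, and was listed at 0 in each of the other 6 organs.

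The plastid glucose-6-phosphate/phosphate translocator imports sugar phosphate into plastids that do not photosynthesise. Its match Unigene7815 had 109 RPKM in sepals and 784 RPKM in carpels, the only unigene of the 26 under the Gene Ontology (GO) term photosynthesis that was lower in sepals past 4-fold. Of the others in that set 14 were higher. Plastid ribosomal proteins, a list made after seeing values, were close to level: 1 of 71 was higher and 1 lower, with summed levels of 11108 RPKM in sepals and 11226 RPKM in carpels.

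**Figure D3:**
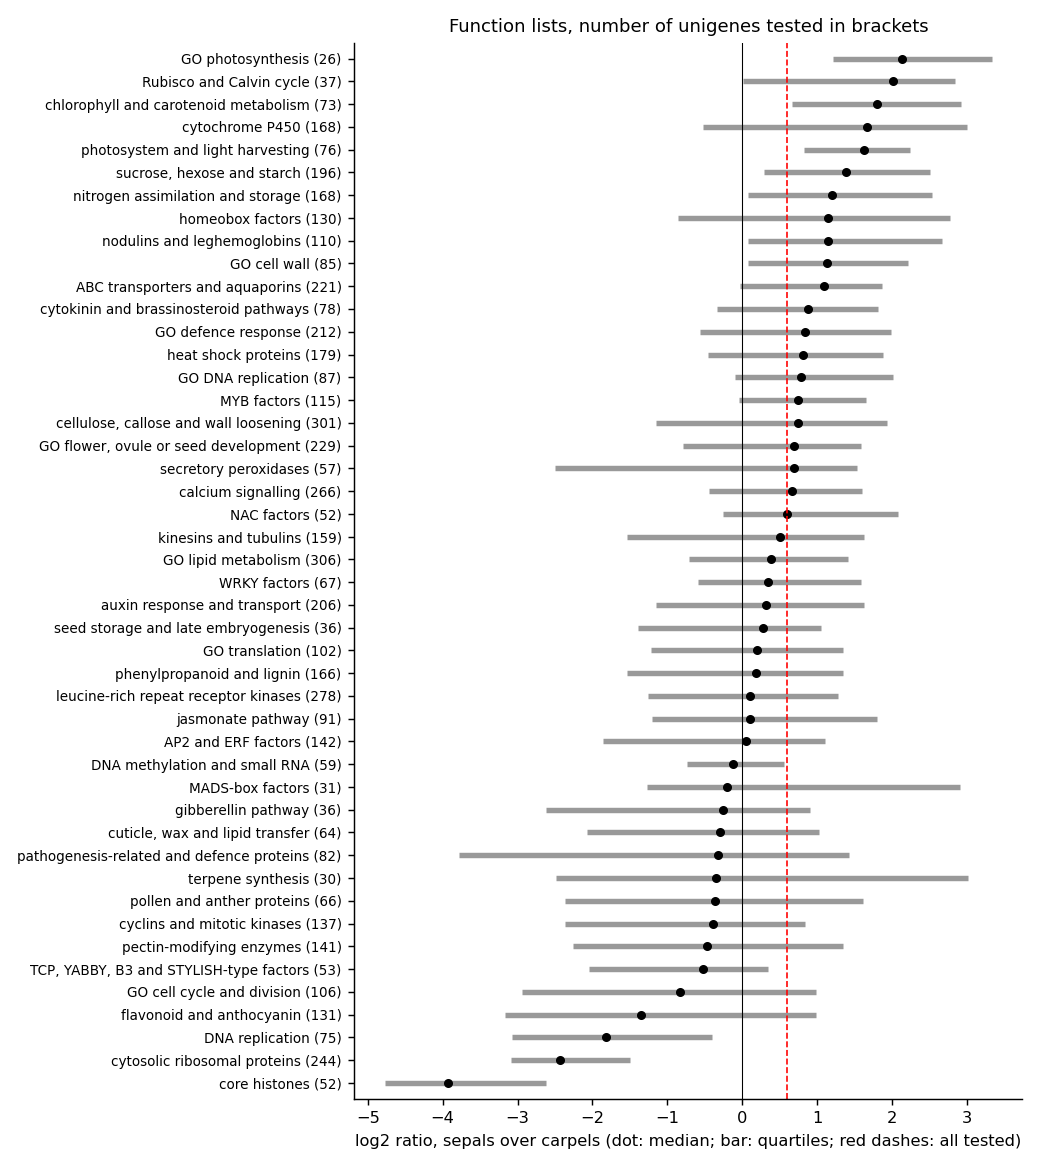
Median (dot) and quartiles (bar) of the log2 ratio of sepals over carpels in the 46 function lists, with the number of compared unigenes in brackets; the red dashes mark the median of all unigenes, 0.60. GO photosynthesis is at the top with 2.14 and core histones at the bottom with -3.93.

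Some of the widest ratios in sepals were found for unigenes of secondary cell walls, the thick walls that xylem and fibre cells lay down after they stop growing. FLA12 (Unigene53296), a fasciclin-like arabinogalactan protein found in such walls, had 2489 reads (1132 RPKM) in sepals and 3 reads (1.58 RPKM) in carpels, a ratio of 718 (246 to 3486). Fasciclin-like AGP 11 (Unigene57796) had 2315 reads (869 RPKM) in sepals and 0 in carpels, and the arabinogalactan protein Unigene66351 had 2312 reads (515 RPKM) in sepals and 0 in carpels, so they were at least 668-fold and at least 667-fold higher in sepals. A list of fasciclin-like proteins, made after these values were seen, held 12 compared unigenes with 8 higher and 1 lower and a summed level of 4229 RPKM in sepals and 140 RPKM in carpels.

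Cellulose synthases, whose subunits differ between primary and secondary walls, leaned to sepals with exceptions. Unigene12573 had 2109 reads (219 RPKM) in sepals and 4 reads (0.479 RPKM) in carpels, a ratio of 457 (178 to 1677); Unigene11127, a match to catalytic subunit 11 of maize, had 98.0 RPKM in sepals and 0.563 RPKM in carpels, and Unigene9335 had 894 reads in sepals and 1 in carpels (139 to 30614 as the interval of the ratio). A subunit 4 match, Unigene11980, differed less, with 130 RPKM in sepals and 26.6 RPKM in carpels. Unigene71417, also a cellulose synthase, was lower in sepals, with 1.06 RPKM there and 83.2 RPKM in carpels. Over 49 cellulose synthase unigenes, again a list made afterwards, 16 were higher and 2 lower, with a median log2 ratio of 1.28.

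Enzymes that polymerise lignin, the phenolic polymer of such walls, included laccase 11 (Unigene71591), with 2431 reads (213 RPKM) in sepals and 4 reads (0.405 RPKM) in carpels, a ratio of 526 (205 to 1933). Dirigent-like protein pDIR12 (Unigene67988) had 255 RPKM in sepals and 6.54 RPKM in carpels, and the peroxidases Unigene66644 and Unigene15970 had 453 and 129 RPKM in sepals, against 45.3 and 7.03 RPKM in carpels. The full lists did not lean this way: of 166 phenylpropanoid and lignin unigenes 25 were higher and 29 lower with a median log2 ratio of 0.18, and of 37 laccases, listed afterwards, 3 were higher and 8 lower. FLA12, Unigene57796, Unigene12573 and laccase 11 shared 1 pattern over the organs. They were high in leaves (347, 291, 90.6 and 125 RPKM) and roots (252, 173, 59.7 and 41.9 RPKM), and at 3.07 RPKM or less in stamens and in each kind of petal.

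The study designed primers to 61 of the unigenes held here, of which 9 had at least 100 reads in one organ and a ratio past 8-fold, 4 higher and 5 lower in sepals. The primers of the 3 wall unigenes at or near 0 in carpels are shown because they identify the assembled fragments that carry this result, 5′ to 3′.
Unigene57796 forward: tttgattctcttagtaaccctgttga
Unigene57796 reverse: tcaaaattcaatggacgcttt
Unigene66351 forward: ggtttcccttggagtttcgt
Unigene66351 reverse: gctcttcaacttcaacatcacaa
Unigene12573 forward: aactcttattgttatttggtctgtgc
Unigene12573 reverse: ggatcaattctcacccaaacc

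Lipoxygenases gave the most abundant sepal unigene with a named function among those past 8-fold. LOX2 starts the synthesis of jasmonate and of green leaf compounds from fatty acids of the plastid, and Unigene27073 had 2164 reads (1903 RPKM) in sepals and 5 reads (5.08 RPKM) in carpels, a ratio of 375 (160 to 1156). Unigene30129 had 1200 RPKM in sepals and 4.76 RPKM (5 reads) in carpels, and Unigene210 had 1007 RPKM in sepals and 1.93 RPKM (3 reads) in carpels. Unigene39956 had 845 RPKM in sepals and 3.85 RPKM (5 reads) in carpels, and Unigene63898 had 641 RPKM in sepals and 1.24 RPKM (4 reads) in carpels. Unigene58029 had 1548 reads in sepals and 1 in carpels. These unigenes are 181 to 591 bp long and may be pieces of 1 or a few genes. Over 54 lipoxygenase unigenes 18 were higher and 3 lower, with sums of 15006 RPKM in sepals and 11336 RPKM in carpels. The 33 members within 4-fold summed to 6429 RPKM in sepals and 11162 RPKM in carpels.

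The list of the whole jasmonate pathway held these 54 lipoxygenases among its 91 unigenes, with 22 higher, 8 lower and a median log2 ratio of 0.10. Without the lipoxygenases, a division made after seeing values, 4 of 37 were higher and 5 lower, 3 and 11 when centred. Allene oxide cyclase, which closes the ring of the jasmonate precursor, had 6.03 RPKM in sepals and 212 RPKM in carpels (Unigene50497, 35.2-fold lower, 19.9 to 68.8). JAZ repressors are a family that jasmonate induces and removes. Those named here were picked from list members past 4-fold, so they do not speak for the family. Jasmonate ZIM domain 2 (Unigene62167) had 239 RPKM in sepals and 1363 RPKM in carpels, and TIFY10B (Unigene60120) 37.4 RPKM in sepals and 164 RPKM in carpels.

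Cytochrome P450 enzymes of the CYP71 and CYP83 families, which oxidise many specialised metabolites, were among the leading sepal unigenes. Unigene18525 (CYP71B9) had 1209 RPKM in sepals and 14.7 RPKM in carpels, a ratio of 82.2 (46.9 to 160). Unigene22310 (CYP83E8) had 1206 and 29.3 RPKM and Unigene41757 (CYP83B1) 1196 and 12.6 RPKM, sepals first. These names come from soybean and crucifers, and the substrates in vetch are not known from them. Over the whole family 71 of 168 unigenes were higher and 23 lower, a share of 42.3% against 19.7%, and 50 and 30 passed when centred. Members lower in sepals included a secologanin synthase match, Unigene2599, with 1.97 RPKM in sepals and 180 RPKM in carpels, and CYP94B1, Unigene69795, with 31.3 RPKM in sepals and 343 RPKM in carpels. The other leading sepal unigenes were a glutathione S-transferase (Unigene42676, 1544 RPKM in sepals and 180 RPKM in carpels) and a repetitive proline-rich cell wall protein (Unigene26316, 1215 RPKM in sepals and 45.4 RPKM in carpels), which had 3512 RPKM in leaves.

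Many unigenes named for cell division had higher levels in carpels, though division itself was not measured. Core histones package new DNA and are made when it is copied, and 44 of 52 histone unigenes were lower in sepals, a share of 84.6% against 9.11% of all unigenes, with 0 higher and a median log2 ratio of -3.93. Histone H2B (Unigene3857) had 124 RPKM in sepals and 2761 RPKM in carpels, 22.4-fold lower (19.8 to 25.3), histone H4 (Unigene8203) 55.0 RPKM in sepals and 1497 RPKM in carpels, and histone H2A (Unigene5383) 44.1 RPKM in sepals and 686 RPKM in carpels. Together the histones took 0.0697% of the reads in sepals and 0.822% in carpels.

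Unigenes named for DNA replication, and in part those named for mitosis, leaned the same way as the histones. Of 75 unigenes named for replication 35 were lower in sepals and 1 higher, with a median log2 ratio of -1.82. Ribonucleotide reductase makes the building blocks of DNA, and its small subunit had 52.3 RPKM in sepals and 907 RPKM in carpels in Unigene60435 and 10.6 and 307 RPKM, in that order, in Unigene7276. The 1 higher unigene, Unigene16056, was also a small subunit match, with 11.7 RPKM in sepals and 1.39 RPKM (8 reads) in carpels. A minichromosome maintenance protein, part of the replicative helicase, had 12.8 RPKM in sepals and 73.2 RPKM in carpels (Unigene3181). Cyclin B, which drives entry into mitosis, had 5.81 RPKM in sepals and 202 RPKM in carpels (Unigene70883, 34.7-fold lower, 26.2 to 47.0), and the mitotic kinase CDKB had 5.64 RPKM in sepals and 193 RPKM in carpels (Unigene70135). In all 41 of 137 unigenes for cyclins and mitotic kinases were lower and 8 higher. A CDKB1-2 match, Unigene70201, was among the 8, with 101 RPKM in sepals, 14.0 RPKM in carpels and 377 RPKM in leaves. The set of 87 unigenes under the GO term DNA replication did not lean this way. Its median log2 ratio was 0.79, with 23 higher and 6 lower. Its higher members included Unigene71969, a ubiquitin-protein ligase match with 35.3 RPKM in sepals and 3.69 RPKM in carpels, which is no replication enzyme. That member alone does not account for the set.

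Microtubule genes were mixed. Of 19 beta-tubulins, a list made after seeing values, 9 were lower and 2 higher; Unigene36585 (beta-6) had 181 RPKM in sepals and 977 RPKM in carpels, while Unigene27071 (beta-11) had 271 RPKM in sepals and 32.5 RPKM in carpels. Chromomethylase, a plant enzyme that keeps DNA methylated at CHG sites through replication, had 5.93 RPKM in sepals and 131 RPKM in carpels (Unigene14763, 22.0-fold lower, 17.9 to 27.5). In the same list of DNA methylation and small RNA genes 5 of 59 were higher in sepals, and all 5 had dicer-type names, the enzymes that cut double-stranded RNA into small RNAs. The dicer-like 2 match Unigene5033 had 31.5 RPKM in sepals and 4.42 RPKM in carpels, and Unigene17564, with the same name, 20.4 RPKM in sepals and 2.81 RPKM in carpels. Of the 4 lower unigenes, 2 were cycloartenol methyltransferases caught by the word search, which act on sterols and not on DNA.

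Of the 46 lists, cytosolic ribosomal proteins held the largest share of carpel reads. Cytosolic ribosomal proteins took 0.894% of reads in sepals and 4.83% in carpels, and of 244 compared unigenes 155 were lower in sepals and 2 higher, with a median log2 ratio of -2.43. Ribosomal protein S28e (Unigene37194) had 552 RPKM in sepals and 5581 RPKM in carpels (10.1-fold lower, 9.39 to 10.9), 60S L9 (Unigene38301) 633 RPKM in sepals and 4462 RPKM in carpels, and 60S L10a (Unigene64341) 236 RPKM in sepals and 2337 RPKM in carpels. Their sums were 33026 RPKM in sepals, 195032.5 RPKM in carpels, 23354 RPKM in leaves and 71352 RPKM in roots. The median unigene of the list was 102 RPKM in sepals and 492 RPKM in carpels, whereas 1 of the 71 plastid ribosomal proteins was lower in sepals.

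A proteinase inhibitor was the most abundant carpel unigene with a named function among those past 8-fold. Trypsin inhibitors of legumes block digestive proteases of insects and are stored in seeds, and Unigene9828 had 60 reads (37.3 RPKM) in sepals and 9410 reads (6757 RPKM) in carpels, 181-fold lower in sepals (141 to 238). Unigene20594 had 68.4 RPKM in sepals and 2869 RPKM in carpels, and Unigene51782 6.25 RPKM in sepals and 1583 RPKM in carpels. In a list of 15 trypsin and Kunitz inhibitors, made afterwards, 12 were lower and 0 higher, and their summed level was 496 RPKM in sepals, 16287 RPKM in carpels and 1842 RPKM in roots. Higher still than any of them was Unigene35395, named only by a rice locus and therefore outside the naming rule, with 147 reads (109 RPKM) in sepals and 14151 reads (12156 RPKM) in carpels.

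Of 82 pathogenesis-related and defence unigenes 30 were lower and 12 higher, but 15 of the 82 were the inhibitors above. Without them, a division made after seeing values, 18 of 67 were lower and 12 higher, 21 and 9 when centred, with a median log2 ratio of 0.31 and sums of 4932 RPKM in sepals and 8831 RPKM in carpels. Thaumatin-like protein (Unigene64519) had 30.9 RPKM in sepals and 1087 RPKM in carpels, and, from the pectin list, a polygalacturonase-inhibiting protein, which blocks fungal pectinases (Unigene64959), 39.7 RPKM in sepals and 1026 RPKM in carpels. Higher in sepals were the PR10 protein of pea (Unigene29521), with 1709 RPKM in sepals and 261 RPKM in carpels, and a chitinase (Unigene13880), with 314 RPKM in sepals and 48.5 RPKM in carpels. Dirigent-like pDIR11 (Unigene28427) had 65.5 RPKM in sepals and 3411 RPKM in carpels, opposite to pDIR12 above, and the peroxidases Unigene21030 and Unigene60727 had 336 and 66.2 RPKM in sepals, against 3059 and 1884 RPKM in carpels.

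Unigenes named for flavonoid synthesis leaned lower in sepals, with exceptions. Of 131 flavonoid and anthocyanin unigenes 53 were lower and 19 higher, 65 and 13 when centred, and the median log2 ratio was -1.35, which was 1.95 on the log2 scale under that of all unigenes. Chalcone synthase makes the first flavonoid, and Unigene58580 had 4 reads (1.45 RPKM) in sepals and 623 reads (262 RPKM) in carpels, 180-fold lower in sepals (69.9 to 662). In a list of 25 chalcone synthases and isomerases made afterwards, 18 were lower and 0 higher. A rhamnosyltransferase that decorates anthocyanins (Unigene69051) had 5.11 RPKM in sepals and 727 RPKM in carpels, and dihydroflavonol 4-reductase (Unigene70321) 2.00 RPKM in sepals and 196 RPKM in carpels. Phenylalanine ammonia-lyase, at the head of the pathway, had 32.6 RPKM in sepals and 338 RPKM in carpels (Unigene590). Among the 19 higher were other dihydroflavonol reductase matches. Unigene39809 had 234 RPKM in sepals and 19.3 RPKM in carpels, and Unigene67188 123 RPKM in sepals and 20.4 RPKM in carpels.

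Unigenes named for wax and for the epidermis went both ways. Ketoacyl-CoA synthases lengthen fatty acids for wax, and Unigene70050 had 7.55 RPKM in sepals and 645 RPKM in carpels (85.4-fold lower, 65.3 to 114), and KCS13 (Unigene34825) had 9.76 RPKM in sepals and 845 RPKM in carpels. Of 18 unigenes with such names, listed afterwards, 7 were lower, 2 higher and 9 within 4-fold. Among the 2 higher was Unigene70911, with 87.95 RPKM in sepals and 20.7 RPKM in carpels. The list of cuticle, wax and lipid transfer unigenes held 17 lower and 10 higher of 64. Lipid transfer proteins went both ways: Unigene60985 had 14.5 RPKM in sepals and 564 RPKM in carpels, and Unigene63877 182 RPKM in sepals and 1.56 RPKM (5 reads) in carpels. Class IV HD-Zip factors act in the outermost cell layer, and of 15 unigenes with such names, listed afterwards, 9 were lower and 2 higher. Unigene15339 had 0 reads in sepals and 184 reads in carpels, at least 70.8-fold lower. A protodermal factor-like protein (Unigene59223), whose first match was a bare rice locus, had 151 RPKM in sepals and 1521 RPKM in carpels.

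Several enzymes of growing walls were lower in sepals. Xyloglucan endotransglucosylase cuts and rejoins the tethers between cellulose fibres, and Unigene68847 had 353 reads (60.1 RPKM) in sepals and 6862 reads (1349 RPKM) in carpels, 22.4-fold lower in sepals (20.2 to 25.1). Unigene37486, of the same family, had 43.2 RPKM in sepals and 1201 RPKM in carpels. The family as a whole was close to level. Of its 24 compared unigenes, listed afterwards, 6 were lower, 0 higher and 18 within 4-fold. Their median log2 ratio was -0.01. Cellulose synthase-like protein D2, a family known for tip growth in Arabidopsis, had 4.26 RPKM in sepals and 282 RPKM in carpels (Unigene70809). Of 301 unigenes for cellulose, callose and wall loosening 70 were higher and 51 lower, and 49 and 68 when centred.

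Among the unigenes with a primer pair that were lower in sepals, Unigene68847 and the gibberellin-regulated GASA5 match Unigene62913 have known relatives. Unigene62913 had 8.05 RPKM in sepals and 190 RPKM in carpels, and was higher still in stamens, with 401 RPKM. The primers of these unigenes identify them here, 5′ to 3′.
Unigene68847 forward: ccaaaacactgatctcgatcct
Unigene68847 reverse: tcatccccgcagaatgtatc
Unigene62913 forward: cgagcacctatctccacacttt
Unigene62913 reverse: cagttcctctttattggaagtttcat
The other primer unigenes with lower sepal values had uninformative or odd matches. Unigene68765 had 4 reads in sepals and 5749 reads (1141 RPKM) in carpels, a 1660-fold difference (648 to 6093), and its only match was a protein of a green alga. Unigene69082 had 13.1 RPKM in sepals and 960 RPKM in carpels, and Unigene16191 3.99 RPKM in sepals and 39.5 RPKM in carpels. Unigene65612, higher in sepals, had 221 RPKM there and 14.1 RPKM in carpels.

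Transcription factor families differed in side. Of 130 homeobox unigenes 46 were higher in sepals and 18 lower, and the 23 BEL1-like members, counted afterwards, had 19 higher, 0 lower and a median log2 ratio of 3.56. BEL1-like factors pair with KNOX proteins and shape organs and ovules in Arabidopsis; Unigene16951 had 43.5 RPKM in sepals and 1.94 RPKM in carpels (22.4-fold, 14.8 to 35.6) and BLH5 (Unigene65319) 140 RPKM in sepals and 4.50 RPKM in carpels. The list of TCP, YABBY, B3 and STYLISH-type factors had 14 of 53 lower and 0 higher. YABBY factors mark the lower face of lateral organs, and GRAMINIFOLIA (Unigene37118) had 89.95 RPKM in sepals and 993 RPKM in carpels, Unigene24489 86.6 RPKM in sepals and 718 RPKM in carpels, and YABBY1 (Unigene67333) 1.42 RPKM in sepals and 51.8 RPKM in carpels. Of 8 YABBY unigenes, counted afterwards, 5 were lower and 0 higher.

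Other factor families differed from one another. WRKY factors, which act in defence and ageing, had 13 of 67 higher, 19.4% against 19.7% of all unigenes, and 0 lower; Unigene67892 had 67.0 RPKM in sepals and 0.884 RPKM (4 reads) in carpels and Unigene66123 61.7 RPKM in sepals and 0.786 RPKM (3 reads) in carpels. NAC factors had 13 of 52 higher and 3 lower and a median at that of all unigenes. Among AP2 and ERF names 23 of 142 were higher and 34 lower, 23.9% against 9.11% of all unigenes, but the word search also caught a histone (HTB9) and an amino acid transporter (AAP2); the AP2/ERF factor Unigene39515 had 100 RPKM in sepals and 1166 RPKM in carpels. MADS-box names gave 10 higher and 7 lower of 31, led by the homologs above.

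Hormone genes were split within each pathway. In the auxin list, 39 of 206 were higher in sepals and 30 lower, with a median log2 ratio of 0.32. The share of 18.9% higher was near the 19.7% of all unigenes, and with the ratios centred the order turned to 23 higher and 41 lower. Among the higher were auxin response factors, the DNA-binding arm of the pathway: ARF16 had 267 RPKM in sepals and 44.9 RPKM in carpels in Unigene65841 and 192 RPKM in sepals and 18.9 RPKM in carpels in Unigene65226, and ARF8 had 107 RPKM in sepals and 17.9 RPKM in carpels (Unigene69646). Among the lower were GH3 enzymes, which auxin induces and which conjugate it: Unigene65756 had 79.7 RPKM in sepals and 551 RPKM in carpels and Unigene70307 77.6 RPKM in sepals and 467 RPKM in carpels. In the gibberellin list 11 of 36 were lower and 5 higher, and a GID1-type receptor match, Unigene62932, had 6.04 RPKM in sepals and 442 RPKM in carpels. Unigenes with the same match also went the other way. Unigene53913 had 135 RPKM in sepals and 32.3 RPKM in carpels, and Unigene11876 36.3 RPKM in sepals and 4.995 RPKM in carpels. A histidine kinase receptor of cytokinin had 120 RPKM in sepals and 26.9 RPKM in carpels (Unigene70813). An annexin, of a family that binds calcium and membranes, was lower in sepals (Unigene53762) with 10.3 RPKM in sepals and 374 RPKM in carpels, while the calcium list as a whole had 52 of 266 higher and 19 lower, at the background.

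The unigenes of each side differed in where else they were expressed. Of the 8021 higher in sepals, 20.2% had their highest level of all 8 organs in sepals and 26.3% in leaves, and 73.0% were in leaves at 0.5 or more of their sepal level. In petals this share was between 66.3% and 71.4%, and in stamens it was 49.6%. Of the 3713 lower in sepals, 82.2% had their highest level in carpels, 7.19% in roots and 0.593% in leaves. Among all compared unigenes these shares were 10.3% in sepals, 20.3% in carpels, 18.2% in roots and 12.7% in leaves. The ratio itself chose both sets, so the shares of sepals and carpels follow in part from it. In roots 22.1% of the lower set reached 0.5 or more of the carpel level, and in leaves 2.72%.

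**Figure D4:**
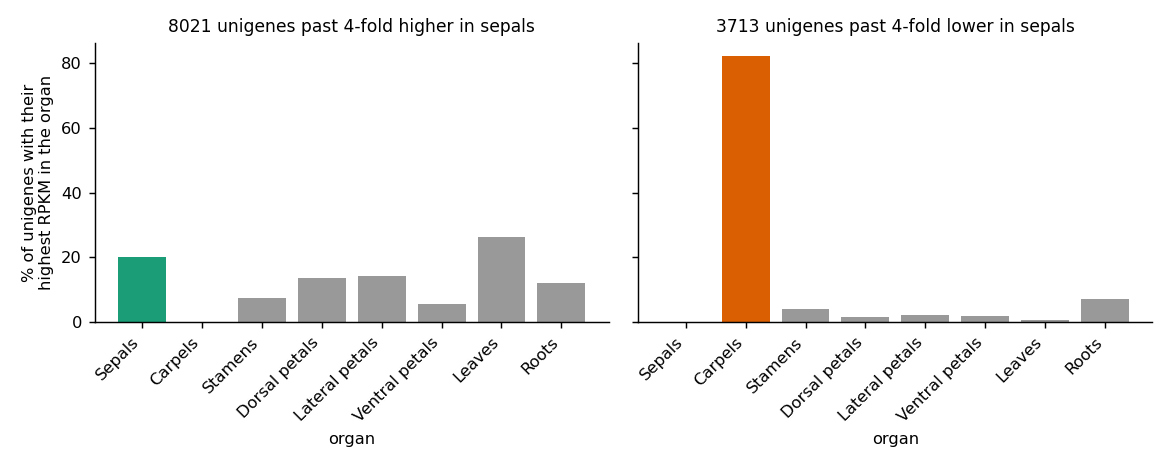
Share of unigenes (y axis, %) whose highest RPKM of all 8 organs was in the organ on the x axis, for the 8021 unigenes higher in sepals (left) and the 3713 lower in sepals (right). Leaves hold 26.3% and sepals 20.2% of the left set, and carpels 82.2% of the right set.

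The plot over all organs shows the same for 23 named unigenes. The light-harvesting, phosphoribulokinase and serine hydroxymethyltransferase unigenes were highest in leaves, the wall unigenes with 0 to 4 carpel reads were seen in sepals, leaves and roots, and the LOX2-type unigene in sepals, leaves and petals. Among carpel unigenes, histone H2B, cyclin B and S28e had their second highest level in roots (534, 84.1 and 1241 RPKM), whereas CRABS CLAW had its second highest in stamens (4.51 RPKM).

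**Figure D5:**
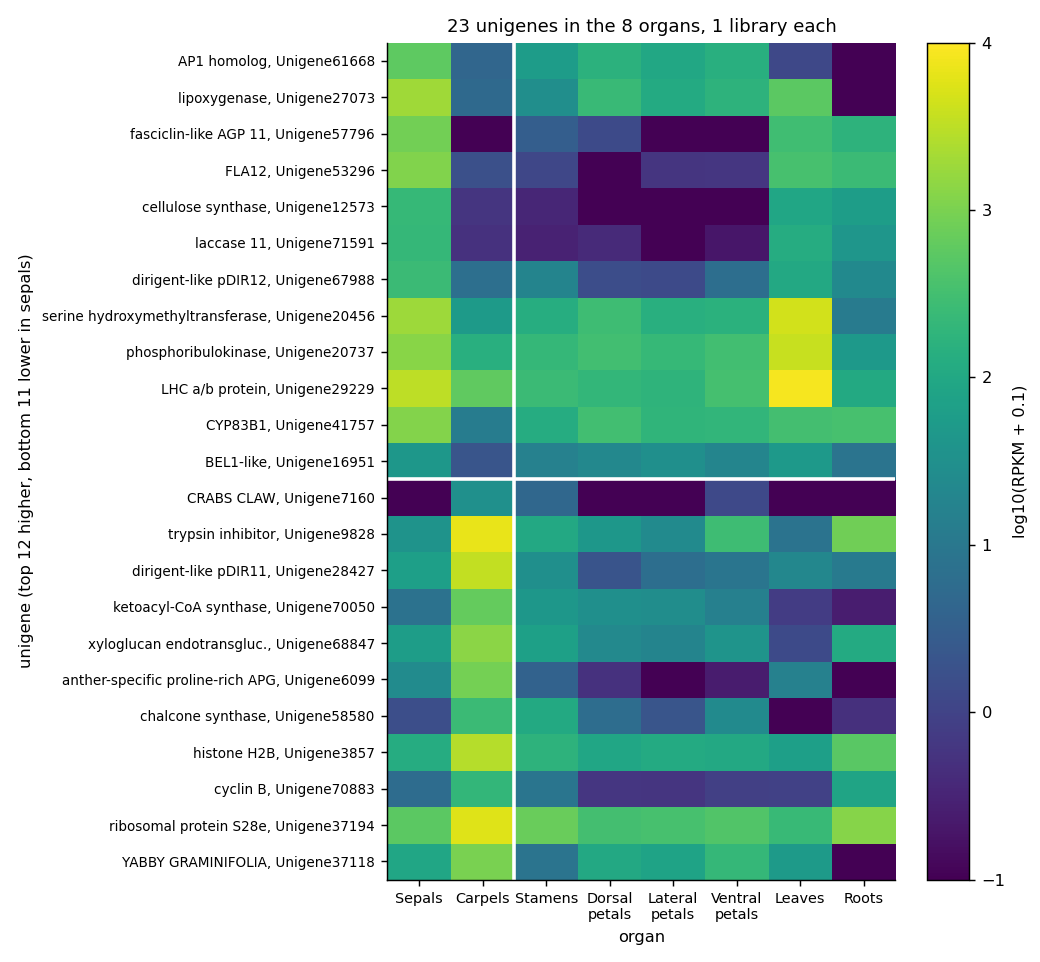
Level of 23 unigenes (rows) in the 8 organs (columns) as log10(RPKM + 0.1), with sepals and carpels at the left; the upper 12 were higher and the lower 11 lower in sepals. Laccase 11, the cellulose synthase and both fasciclin-like unigenes are low in carpels, stamens and petals and high in sepals, leaves and roots.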

How the data were processed

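The authors assembled the pooled reads of all organs with SOAPdenovo and TGICL into unigenes and annotated them against nr and with Blast2GO. The read aligner was not given in the sources used here, and the deposited files of each library give, per unigene, the read count, the RPKM and the percent of its length that was covered. The deposited RPKM values were recomputed from counts, lengths and library totals and differed by a relative 5.58e-09 at most. Libraries were joined by unigene, and a unigene missing from a file had 0 reads.

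Ratios, intervals and lists were computed in Python 3.11 with numpy, pandas and scipy; TMM factors came from edgeR. Unigenes with at least 30 reads over both libraries were compared at 4-fold, with 0 reads set to 3. No p-value was computed. The calling was tested on simulated counts that held counting error only. They held no spread between plants or library preparations, so the calls were not tested against that spread. Function groups were 46 word searches in nr or GO descriptions; 16 narrower ones were added after values had been seen. The members and lists were chosen with earlier results of these data known. Named unigenes were the homeotic homologs, the 10 highest past 8-fold on each side with a named function, up to 3 per list and side past 4-fold with most reads, and primer unigenes past 8-fold with at least 100 reads; the text gives a part of these, and 18 more were picked after seeing values, among them the unigenes named here for CRABS CLAW, glycolate oxidase, glycine decarboxylase, YABBY1, class IV HD-Zip and protodermal factors, beta-tubulin 11, chalcone synthase Unigene58580, lipoxygenases Unigene58029 and Unigene39956, cellulose synthases Unigene11127, Unigene9335 and Unigene71417, and Unigene37486 and Unigene35395. Alternatives were TMM, centring on the median, other read filters, a length of at least 300 bp, folds of 2 and 8, intervals wholly past 4-fold, and 0.5 reads added. One homeotic homolog is not reported here.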

Additional observations from a re-analysis of the deposited data

How the results depend on the processing

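No paired analysis was possible because each organ had 1 library, and for the same reason no library could be left out. The count of 8021 unigenes higher in sepals became 5087 with TMM factors, 4852 with centring, 4624 with at least 100 reads, 16403 at a fold of 2, 3540 at a fold of 8, and 4004 with the interval wholly past 4-fold; it was 11626 with no read filter, 5439 with unigenes of at least 300 bp and 7822 with 0.5 reads added. The count of 3713 lower in sepals became 5775 with centring, 2283 with unigenes of at least 300 bp, 7650 at a fold of 2 and 1923 at a fold of 8; it was 5550 with TMM, 5298 with no read filter, 2579 with at least 100 reads, 2488 with intervals wholly past 4-fold and 3671 with 0.5 reads added. TMM and centring each moved every ratio by the same amount, too small to turn the direction of any unigene past 4-fold. Of the 286 named unigenes past 4-fold, 252 stayed so with TMM and 247 with centring. Of the 46 lists, 31 had a median above 0, of which 20 were also above the median of all unigenes; the sign of the median differed in 10 lists with TMM, 11 with centring, 5 with no read filter, 6 with at least 100 reads and 3 with unigenes of at least 300 bp. Depth limits the ratios that rest on 0 to 5 reads in 1 library. The jasmonate and defence lists were also counted without the lipoxygenases and the inhibitors, an alternative chosen after seeing the data: the median log2 ratio was then -0.08 for the jasmonate list, against 0.10 for the whole list, and 0.31 for the defence list, against -0.32 for the whole list.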

Other observations

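Further groups had more unigenes higher than lower in sepals past 4-fold, to be read beside 19.7% higher and 9.11% lower over all unigenes. Nitrogen assimilation and storage had 55 of 168 higher and 12 lower, and the nodulin and leghemoglobin names, which in legumes cover many transporters outside the nodule as well, had 39 of 110 higher and 7 lower. ABC transporters and aquaporins had 49 of 221 higher and 18 lower, heat shock proteins 41 of 179 higher and 10 lower, and MYB factors 26 of 115 higher and 13 lower, all 3 nearer to the background. When centred they had, in that order, 33 higher and 25 lower, 28 and 18, and 17 and 16. The MYB shares of 22.6% higher and 11.3% lower were both above those of all unigenes, so MYB factors showed no clear lean. The unigenes under the GO term for the cell wall had 25 of 85 higher and 6 lower, 16 and 12 when centred, and those under defence response 53 of 212 higher and 17 lower, 27 and 24 when centred.

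Other groups leaned to carpels or were divided. Pectin-modifying enzymes had 30 of 141 higher and 40 lower in sepals, with a median log2 ratio of -0.47, and terpene synthesis had 9 of 30 higher and 10 lower. Leucine-rich repeat receptor kinases had 42 of 278 higher and 43 lower. Kinesins and tubulins had 30 of 159 higher and 37 lower, and unigenes under the GO terms for cell cycle and division 13 of 106 higher and 36 lower. Seed storage and late embryogenesis proteins had 6 of 36 higher and 4 lower, with a median log2 ratio of 0.28. None of these counts has a replicate behind it.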
